A study of Bos taurus with 90 samples.

Results

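MicroRNA (miRNA) levels in the mammary gland were compared between dairy cows fed an alfalfa hay diet and dairy cows fed a corn stover diet. The comparison takes every library with the tissue label mammary gland and either diet label, which gives 12 of the 90 libraries of the series, 6 per diet. By the series' design each diet was fed to 6 cows and the gland of each was sampled, although the labels tie no library to a cow beyond a replicate number, and all 12 cows were mid-lactation Chinese Holsteins sampled after slaughter, with ages not given in the sources used here. The remaining diet of the series, rice straw, has 6 mammary gland libraries of its own, whose values are given beside the other diets and enter the fits only in an alternative with all 18 libraries, where they share the estimate of spread. Alfalfa hay is a legume forage and corn stover is the crop residue of maize, so the comparison asks which gland miRNAs differ between a higher-quality forage and a straw-like one. The paper describes pieces of each tissue ground for RNA, and no sorting of cells. The RNA can therefore come from secretory epithelium, myoepithelium, fat, vessels, blood and connective tissue together.

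A miRNA is a short RNA that guides an Argonaute protein to messenger RNAs, mostly through pairing of its seed, the bases near its 5′ end, and so lowers their translation and stability. Each is cut from a hairpin precursor whose arms give the -5p and -3p products, and members of a family share a seed. In the lactating gland, miR-148a and the miR-30 and let-7 families are typical of secretory epithelium and milk, the miR-200 family keeps the epithelial state, and miR-143 with miR-145 marks smooth muscle and stroma. Levels are given as CPM, the reads of a miRNA scaled to a common total of reads mapped to all miRNAs of that library. CPM is therefore a share of each library, and it was not corrected for how efficiently each miRNA is captured. In whole tissue, fewer cells of a type and less of a miRNA per cell cannot be told apart.

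For this tissue 328 miRNAs are listed, and all 328 entered the comparison. None of them exceeded 1 CPM in fewer than 9 of the 18 gland libraries. The tissue label fitted its markers: miR-148a and miR-30a-5p ranked 2 and 3 by mean CPM, and miR-122, the defining miRNA of hepatocytes, lay between 0 and 34.8 CPM over the 12 libraries. The value of 0 was in alfalfa hay 1, where 3 reads are worth 3.20 CPM, so a level up to that is allowed by counting error alone. Summed levels of the 7 leukocyte miRNAs were 2709 to 7365 CPM on alfalfa hay and 4244 to 10435 CPM on corn stover. The 3 red cell miRNAs summed to 1672 to 4241 CPM and 1070 to 2938 CPM, and the 4 striated muscle miRNAs to 48.7 to 179 CPM and 128 to 269 CPM, in the same order. No member of these 3 lists passed the adjusted limma test in the 12 libraries with equal weights, and their part in any difference below was not tested.

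The library alfalfa hay 1 stood apart from the other 11 before any diet was compared. It held 937556 mapped miRNA reads, against 8745879 to 14328839 in the other alfalfa hay libraries and 4421565 to 5755198 in the corn stover libraries. Its median log2 deviation over all miRNAs was -1.49, and its median Spearman correlation with the other libraries was 0.938, against 0.976 to 0.988 for the others. Alfalfa hay 2 leaned the same way with a median log2 deviation of -0.36. The balance between arms of the same precursor differed too. For miR-126, which is carried by endothelium, reads of the 5p arm were 37.1 times those of the 3p arm in alfalfa hay 1 and 7.24 times in alfalfa hay 2, against 2.40 to 2.91 times in the other alfalfa hay libraries and 2.04 to 3.09 times on corn stover. For miR-151 the same ratio was 0.49 in alfalfa hay 1 and 0.92 in alfalfa hay 2, against 1.69 to 2.10 and 1.93 to 2.87. In 7 precursors both arms had a mean of at least 100 CPM, and alfalfa hay 2 did not stand apart in all. For miR-142, miR-99a and miR-199a its ratio lay within the range of the remaining alfalfa hay libraries. Alfalfa hay 1 was the highest of the 12 there, at 47.7, 177 and 0.318. For miR-423 alfalfa hay 1 and 2 were the highest, at 4.49 and 1.90. For let-7a alfalfa hay 2 lay between alfalfa hay 1 and the remaining ones, within the corn stover range. Rice straw 1 and 2 had ratios of 32.7 and 9.76 for miR-126, so high ratios occurred on that diet too. That library was singled out after its values were seen.

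**Figure D1:**
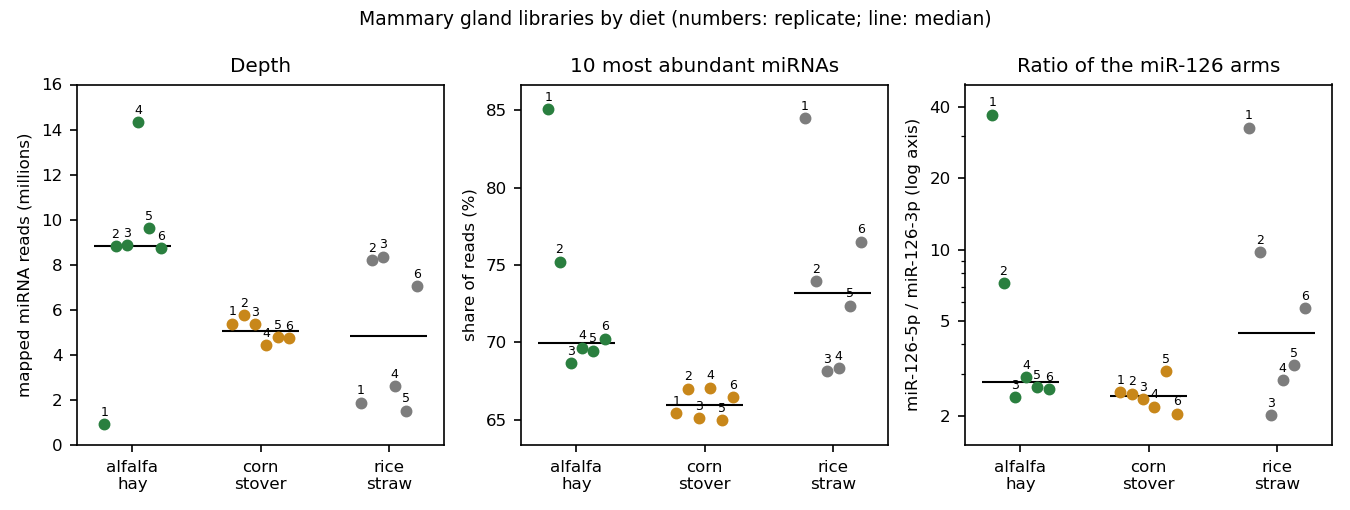
Depth as mapped miRNA reads, percent of reads taken by the 10 most abundant miRNAs, and the ratio of miR-126-5p to miR-126-3p on a log axis, for each mammary gland library by diet. The 10 are a fixed set, ranked by mean CPM over the 12 alfalfa hay and corn stover libraries. Points are libraries with their replicate number, and lines are medians. Alfalfa hay 1 has the fewest reads (937556) and the highest arm ratio (37.1), and the 10 most abundant miRNAs take a larger share in all 6 alfalfa hay libraries than in any corn stover library.

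The diets differed in the share of reads taken by the leading miRNAs. These were ranked by mean CPM over the 12 libraries, so the set was the same in every library and rice straw had no part in it. The 10 most abundant miRNAs took 68.7 to 85.1% of reads on alfalfa hay, with a median of 69.9%, and 65.0 to 67.1% on corn stover, with a median of 65.9%. The groups did not overlap, and rice straw reached from 68.2 to 84.5%. The mean was 73.0% ± 6.34 (SD, n = 6) on alfalfa hay and 66.0% ± 0.96 (SD, n = 6) on corn stover, a difference of -7.05 percentage points (exact two-sided permutation test over all assignments, p = 0.00216, the smallest that 6 against 6 allows). Without alfalfa hay 1 the difference was -4.64 points with an exact permutation p of 0.00216, again the smallest possible. The share was also lower on corn stover for the 5 and the 20 most abundant, by -9.77 and -3.63 points (exact permutation p = 0.00216 each). The level at the 75th percentile of the listed miRNAs ran the other way, at 173 to 596 CPM on alfalfa hay and 653 to 773 CPM on corn stover. Depth did not show a difference over the 12 libraries (exact permutation p = 0.0974), but without alfalfa hay 1 every remaining alfalfa hay library was deeper than every corn stover library (exact permutation p = 0.00216), so depth moved with the diets there and its part was not tested. The number of miRNAs above 1 CPM was 283 to 324 on alfalfa hay and 317 to 324 on corn stover (exact permutation p = 0.260).

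Across the 328 miRNAs, no diet difference passed an adjusted p of 0.05 in limma, and the smallest adjusted p was 0.219. At an unadjusted p under 0.05, 63 miRNAs were higher on corn stover and 3 were lower. These are 0.0%, 19.2% and 0.915% of the miRNAs tested. The edgeR quasi-likelihood test on recovered reads called 0, and DESeq2 called 3, with miR-128 higher (0.307% of those it tested) and miR-127 and miR-6524 lower (0.613%) on corn stover. In the 11 libraries other than alfalfa hay 1, limma called 5 of 328 (1.52%). miR-22-3p, miR-128, miR-29a and let-7d were higher on corn stover and miR-10b was lower. With a weight estimated for each library, which came to 0.04 for alfalfa hay 1, limma called 35 (10.7%), of which 32 were higher and 3 lower. The 5 were among them, but a weight that low nearly leaves that library out, so these fits are not independent. The 35 also held, among others, miR-106a, miR-127, miR-1468, miR-150, miR-15a, miR-15b, miR-2419-5p, miR-28, miR-30c, miR-328, miR-342, miR-363, miR-423-5p, miR-425-5p, miR-497, miR-499, miR-6524, miR-877 and miR-93.

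Direction depended on the scale. On CPM the median log2 difference, corn stover minus alfalfa hay, was 0.44, and 274 of 328 miRNAs (83.5%) were positive. After upper-quartile scaling, which sets the 75th percentile of each library to a common value, the median was -0.16 and 116 (35.4%) were positive. With alfalfa hay 1 left out the medians were 0.17 on CPM and -0.20 after upper-quartile scaling. Trimmed-mean scaling of the 12 libraries lay between, with a median of 0.05 and 183 (55.8%) positive. It gave 28 higher and 33 lower at an unadjusted limma p under 0.05. In edgeR with trimmed-mean factors and in DESeq2 the medians were 0.010 and 0.015, so neither a broad rise nor a broad fall held on every scale. No miRNA passed in the 12 libraries after upper-quartile scaling either, where limma gave 8 higher and 58 lower at an unadjusted p under 0.05. With that scaling and without alfalfa hay 1, limma called 4 of 328 (1.22%), all lower on corn stover: miR-10b, miR-127, miR-30a-5p and miR-6524. Only miR-10b was called both on CPM and after upper-quartile scaling when alfalfa hay 1 was left out. Every alfalfa hay library had a lower 75th percentile than every corn stover library, so this scaling can only move a difference downward. The signs of miR-10b, miR-127, miR-30a-5p and miR-6524 after scaling were therefore fixed, since all 4 were already negative on CPM.

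**Figure D2:**
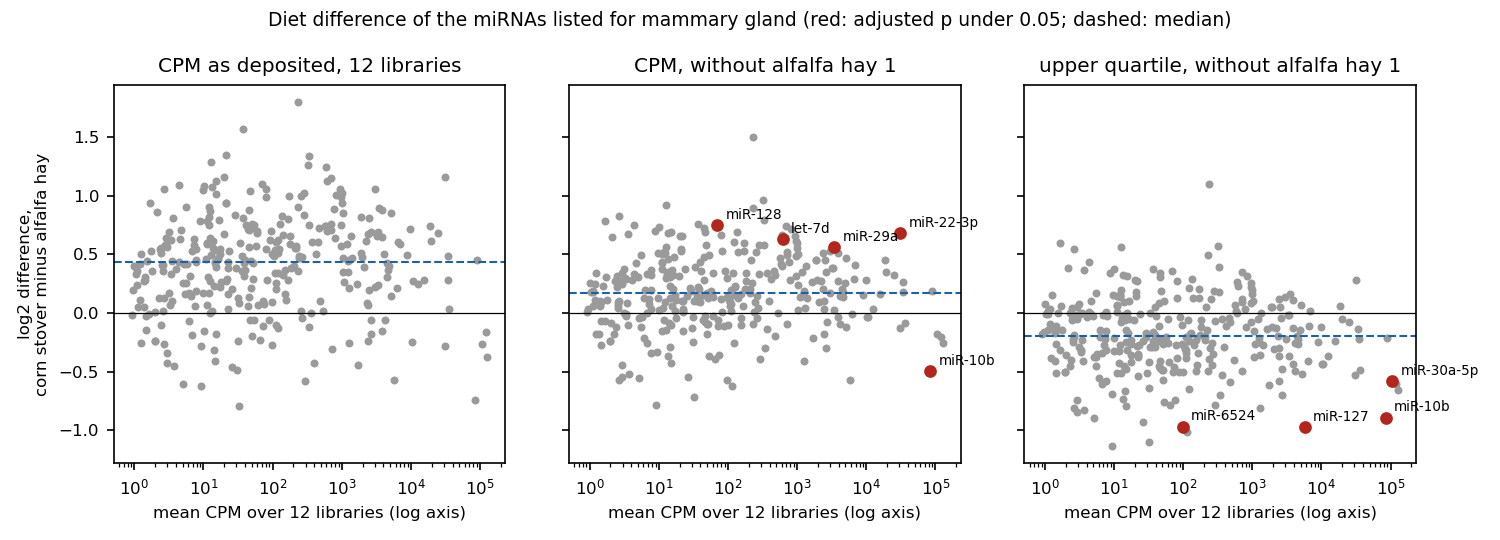
Log2 difference, corn stover minus alfalfa hay, against mean CPM on a log axis for the 328 miRNAs listed for mammary gland, in the 12 libraries, without alfalfa hay 1, and after upper-quartile scaling without alfalfa hay 1. Red points have an adjusted limma p under 0.05 and dashed lines are medians. The median is 0.44, 0.17 and -0.20 in the panels from left to right, and the numbers called are 0, 5 and 4, with miR-10b below the line in all of them.

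Levels of 18 miRNAs (5.49%) did not overlap between the 6 alfalfa hay and the 6 corn stover libraries on CPM. Of these, 17 (5.18%) were higher on corn stover and 1 (0.305%), miR-10b, was lower. The 12 higher ones with a mean of at least 100 CPM were let-7a-5p, let-7d, let-7e, let-7i, miR-1468, miR-22-3p, miR-28, miR-29a, miR-30c, miR-342, miR-425-5p and miR-93. Their direction was not the same on every scale, since let-7i, miR-1468 and miR-425-5p were below zero after upper-quartile scaling. After that scaling 13 miRNAs (3.96%) did not overlap, all lower on corn stover, among them miR-10b, miR-30a-5p, miR-127, miR-411a and miR-25. The lists on the 2 scales share miR-10b alone. Its place on the second was fixed by the first, since the scaling raised every alfalfa hay library and lowered every corn stover library.

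miR-10b, which is transcribed from within a HOX gene cluster and is abundant in stroma and mammary epithelium, was the 1 miRNA lower on corn stover without overlap on CPM. It ran from 71908 to 235766 CPM on alfalfa hay with a median of 85747, and from 49952 to 70307 CPM on corn stover with a median of 56944. Every corn stover library was below every alfalfa hay library, with the highest value in alfalfa hay 1 and with 54394 to 160303 CPM on rice straw. The log2 difference was -0.74 (SE 0.25, limma adjusted p = 0.219), or -1.18 relative to the median of all miRNAs. Without alfalfa hay 1 it was -0.49 (SE 0.11, limma adjusted p = 0.0476), and after upper-quartile scaling as well it was -0.89 (SE 0.13, limma adjusted p = 0.00272). Its near-identical relative miR-10a, with which reads can be shared in alignment, ran from 2744 to 4996 CPM and from 3135 to 5690 CPM, overlapping throughout. As a group, the 4 HOX cluster miRNAs summed to 76707 to 239547 CPM on alfalfa hay and 55783 to 73745 CPM on corn stover, and 2 of the 4 had positive differences, with a median log2 difference of 0.00. In the 11 libraries other than alfalfa hay 1, 0 of 4 were positive with a median of -0.10, and after upper-quartile scaling in the 12 libraries 0 of 4 with a median of -0.66.

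miR-127, an imprinted miRNA of the DLK1-DIO3 region, ran from 4887 to 8974 CPM on alfalfa hay (median 6664) and from 3095 to 6107 CPM on corn stover (median 4737). The groups overlapped on CPM and separated after upper-quartile scaling. Its log2 difference was -0.57 (SE 0.22, limma adjusted p = 0.219) in the 12 libraries, and -0.97 (SE 0.21, limma adjusted p = 0.0335) after upper-quartile scaling without alfalfa hay 1. The median of all miRNAs in that scaled fit was -0.20, and the scaling can only move a negative difference further down. The other abundant member of the region, miR-411a, lay at 1835 to 3305 CPM and 1742 to 3731 CPM. Of the 33 listed miRNAs of this region, 23 had positive and 10 negative differences, with a median of 0.29, below the 0.44 of all miRNAs, and none passed limma with equal weights in the 12 libraries. With alfalfa hay 1 left out their median was 0.01 against 0.17 for all miRNAs. miR-6524, a cattle miRNA named here after its values were seen, ran from 34.1 to 186 CPM on alfalfa hay and from 70.5 to 106 CPM on corn stover. Its CPM values overlapped, and its log2 difference in the 12 libraries was -0.27 (SE 0.35, limma adjusted p = 0.577), with -0.58 (SE 0.21, limma adjusted p = 0.109) without alfalfa hay 1, -0.094 without alfalfa hay 4 and -0.14 without alfalfa hay 6. It was called by DESeq2 and with library weights, at -0.72 (SE 0.19, limma adjusted p = 0.0271) for the latter, and at -0.97 (SE 0.21, limma adjusted p = 0.0335) after upper-quartile scaling without alfalfa hay 1. The sign of miR-6524 under that scaling was likewise fixed by its negative difference on CPM.

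**Figure D3:**
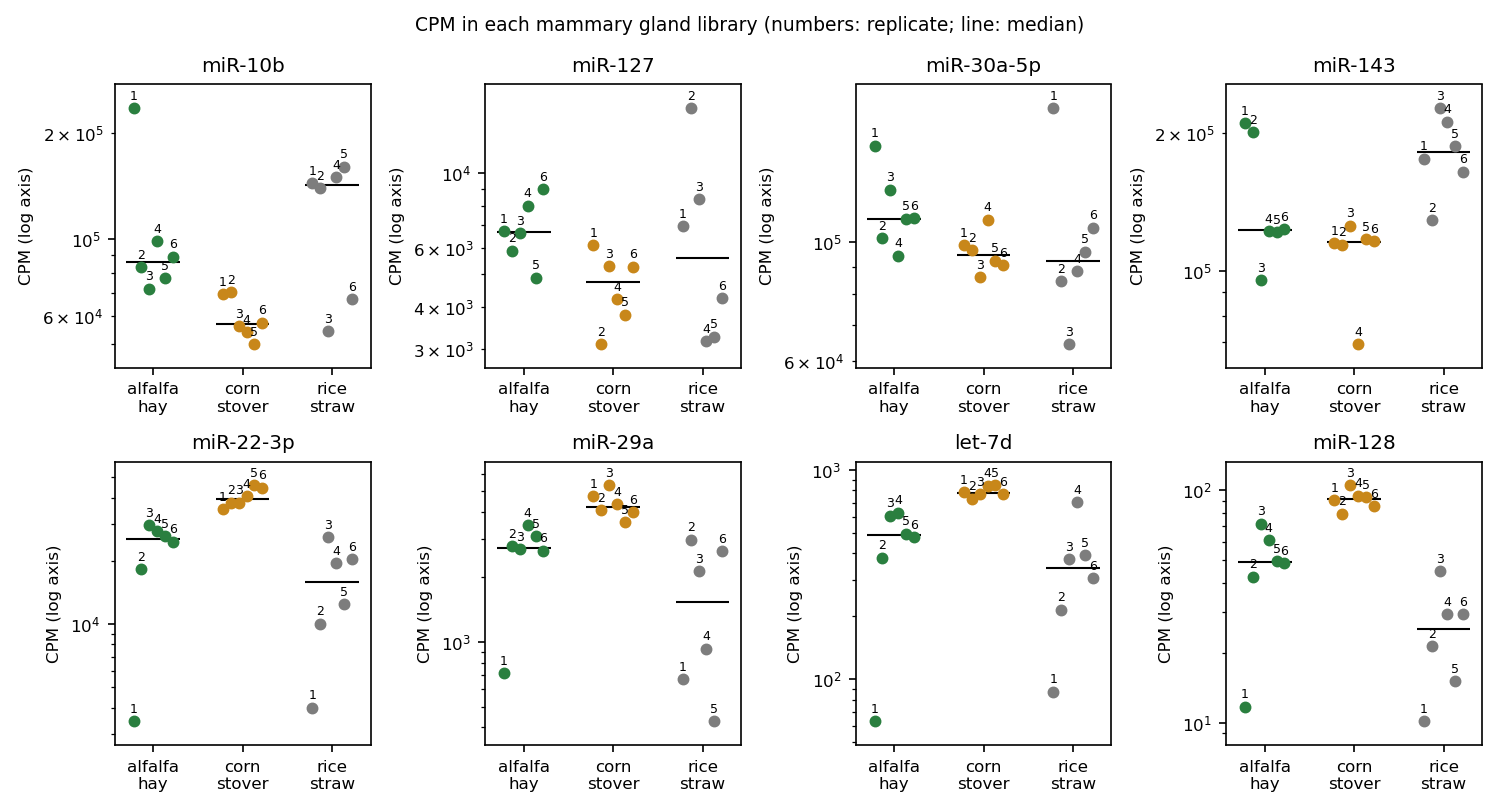
CPM on a log axis in each mammary gland library for 8 miRNAs by diet, with rice straw shown for reference. Points are libraries with their replicate number and lines are medians. miR-10b is lower in all 6 corn stover libraries (49952 to 70307 CPM) than in any alfalfa hay library, while miR-22-3p, miR-29a, let-7d and miR-128 are higher in all 6. The differences of miR-22-3p, miR-29a, let-7d and miR-128 keep their sign after upper-quartile scaling. That of miR-10b had to keep it, since the scaling lowers corn stover libraries relative to alfalfa hay libraries.

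Apart from miR-10b and miR-22-3p, the 10 most abundant miRNAs of the gland overlapped between the diets on CPM. miR-143, of smooth muscle and stroma, ran from 95798 to 210449 CPM on alfalfa hay (median 123022) and from 69396 to 125803 CPM on corn stover (median 115648). miR-148a, a leading miRNA of milk and lactating epithelium, ran from 105994 to 155826 CPM (median 121990) and from 99081 to 131662 CPM (median 111240). Both overlapped between the diets. miR-30a-5p ran from 94335 to 151525 CPM (median 110717) on alfalfa hay and from 85904 to 110151 CPM (median 94418) on corn stover. Its values overlapped on CPM and did not overlap after upper-quartile scaling, where without alfalfa hay 1 it was lower by a log2 difference of -0.58 (SE 0.11, limma adjusted p = 0.0199). The difference of miR-30a-5p was already negative on CPM, so that scaling could only move it further down. On CPM in the 12 libraries these 3 had log2 differences of -0.38, -0.16 and -0.26 (SE 0.21, 0.15 and 0.15), and adjusted p of 0.282, 0.470 and 0.277 in limma. Relative to the median of all miRNAs they were -0.81, -0.60 and -0.70. Without alfalfa hay 1 they were -0.26, -0.20 and -0.18, and miR-143 was -0.25 without corn stover 4, its lowest library.

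Of the other miRNAs among the 10 most abundant, miR-26a ran from 29643 to 104070 CPM and 80230 to 123961 CPM, miR-141 from 22320 to 54985 CPM and 27326 to 45174 CPM, and miR-126-5p from 22193 to 54594 CPM and 22372 to 30234 CPM. All 3 overlapped. miR-27b, which targets lipid genes, ran from 21745 to 35592 CPM and 32928 to 41251 CPM, and miR-21-5p, a miRNA of growth and stress responses, from 12837 to 38030 CPM and 34051 to 51621 CPM. The log2 differences of miR-26a, miR-27b and miR-21-5p were 0.45, 0.28 and 0.48 on CPM and -0.23, -0.39 and -0.19 after upper-quartile scaling, so their sign followed the scale. In the 11 libraries other than alfalfa hay 1 they were 0.19, 0.18 and 0.26 on CPM. For miR-141, at 0.04 (SE 0.23), the sign also turned when alfalfa hay 1 was left out.

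Among the 10 most abundant, miR-22-3p alone was higher in every corn stover library than in any alfalfa hay library. This miRNA acts on growth factor and metabolic signalling. It ran from 3438 to 29638 CPM on alfalfa hay (median 25507) and from 35235 to 45864 CPM on corn stover (median 39344). No alfalfa hay library reached the lowest corn stover library, the lowest value by far was in alfalfa hay 1, and rice straw lay at 3995 to 26059 CPM. The log2 difference was 1.16 (SE 0.41, limma adjusted p = 0.219), or 0.72 relative to the median of all miRNAs. With alfalfa hay 1 left out it was 0.68 (SE 0.13, limma adjusted p = 0.0287), without alfalfa hay 1 and 2 it was 0.57 (SE 0.10, limma adjusted p = 0.0180), and after upper-quartile scaling in the 12 libraries it was 0.49 (SE 0.22, limma adjusted p = 0.239).

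The let-7 family, which holds back proliferation genes in differentiated tissue, had positive differences throughout on CPM. Its 10 listed members summed to 16234 to 65473 CPM on alfalfa hay and to 70897 to 78363 CPM on corn stover, with no overlap. All 10 were positive with a median of 0.63 against 0.44 for all miRNAs, and after upper-quartile scaling 4 of 10 were positive, with a median of -0.04 against -0.16. Without alfalfa hay 1 all 10 were positive on CPM with a median of 0.31 against 0.17. let-7a-5p ran from 5177 to 27054 CPM (median 23193) and from 27378 to 33040 CPM (median 28567), and let-7i from 2527 to 4702 CPM (median 4557) and from 4817 to 6324 CPM (median 5392). In both, every corn stover library was above every alfalfa hay library by a narrow margin. The log2 differences were 0.68 (SE 0.33, limma adjusted p = 0.234) and 0.40 (SE 0.21, limma adjusted p = 0.249), and without alfalfa hay 1 they were 0.32 (SE 0.11) and 0.25 (SE 0.10). let-7d ran from 62.9 to 626 CPM (median 488) and from 729.6 to 846 CPM (median 778), and let-7e from 156 to 596 CPM (median 572) and from 639 to 785 CPM (median 765). let-7d passed without alfalfa hay 1, at 0.63 (SE 0.14, limma adjusted p = 0.0476), and no other member did. let-7a, let-7d and let-7f share a hairpin cluster, with let-7d and let-7f within 10000 bases of a let-7a gene in the RefSeq table of assembly ARS-UCD2.0.

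The miR-29 family, which restrains collagen and other matrix genes, had 4 listed members, all positive, with a median of 0.80, the highest of the lists in the 12 libraries. In the 11 libraries other than alfalfa hay 1 all 4 were positive with a median of 0.36, which was below that of striated muscle (0.41), the basal pair (0.40) and miR-221 with miR-222 (0.37). miR-29a ran from 715 to 3476 CPM (median 2734) on alfalfa hay and from 3584 to 5333 CPM (median 4212) on corn stover. The groups did not overlap, and rice straw lay lower at 426 to 2981 CPM. Its log2 difference was 0.90 (SE 0.33, limma adjusted p = 0.219), and without alfalfa hay 1 it was 0.56 (SE 0.13, limma adjusted p = 0.0476). miR-29c lay at 589 to 2603 CPM and 2419 to 3560 CPM, and miR-29b, a neighbour of miR-29a in the genome, at 48.0 to 378 CPM and 185 to 371 CPM, so the neighbour overlapped.

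miR-128, known best from neurons and from lipid regulation, ran from 11.7 to 71.7 CPM (median 49.1) on alfalfa hay and from 79.2 to 105 CPM (median 91.8) on corn stover. All 6 corn stover libraries were above all alfalfa hay and all rice straw libraries, the latter at 10.1 to 45.0 CPM. The log2 difference was 1.10 (SE 0.36, limma adjusted p = 0.219), and 0.75 (SE 0.17, limma adjusted p = 0.0476) without alfalfa hay 1. It was also the miRNA that DESeq2 called higher, at 0.60 (SE 0.16, DESeq2 adjusted p = 0.0180).

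The largest estimates belonged to less abundant miRNAs that did not pass in the 12 libraries with equal weights. miR-2419-5p, miR-150, miR-363 and miR-106a, described next, were among the 35 called with library weights. miR-2419-5p, a cattle miRNA, ran from 32.0 to 330.3 CPM (median 75.3) on alfalfa hay and from 197 to 430.1 CPM (median 344) on corn stover, and overlapped through alfalfa hay 3. Its log2 difference was 1.8 (SE 0.46, limma adjusted p = 0.219), and it was called when alfalfa hay 3 was left out, at 2.16 (SE 0.40, limma adjusted p = 0.0206). miR-150, a lymphocyte miRNA, ran from 61.9 to 371 CPM (median 185) and from 304 to 699 CPM (median 376), overlapping through alfalfa hay 5, with a log2 difference of 1.26 (SE 0.37). With alfalfa hay 1 left out the differences of miR-2419-5p and miR-150 were 1.5 (SE 0.39) and 0.97 (SE 0.25). Of the 7 leukocyte miRNAs, 6 were positive with a median of 0.36, below that of all miRNAs, but without alfalfa hay 1 only 3 were positive and the median was -0.046. The defining miR-142-5p lay at 1730 to 5691 CPM and 2909 to 8086 CPM.

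miR-363 and miR-106a, both of the X-linked paralog of the growth-promoting miR-17-92 cluster, ran from 18.1 to 41.8 CPM and 1.07 to 13.9 CPM on alfalfa hay and from 38.4 to 75.8 CPM and 12.1 to 23.5 CPM on corn stover. The 1.07 CPM of miR-106a was in alfalfa hay 1, below the 3.20 CPM that 3 reads are worth there. miR-363 and miR-106a both overlapped by a narrow margin. Their log2 differences were 0.88 (SE 0.27) and 1.29 (SE 0.41), or 0.73 (SE 0.20) and 0.92 (SE 0.27) without alfalfa hay 1, and their neighbour miR-20b, at 4.27 to 8.80 CPM and 9.38 to 14.9 CPM, did not overlap. All 15 listed members of miR-17-92 and its paralogs were positive, with a median of 0.61, and after upper-quartile scaling 7 of 15 were positive with a median of -0.01. Without alfalfa hay 1, 14 of 15 were positive on CPM with a median of 0.27. miR-93, of another paralog, ran from 159 to 544 CPM (median 481) and from 634 to 741 CPM (median 683) without overlap, with a log2 difference of 0.74 (SE 0.29), and 0.47 (SE 0.12) without alfalfa hay 1. miR-25, within 10000 bases of miR-93, lay at 1637 to 2938 CPM and 2345 to 2791 CPM and was among those lower without overlap after upper-quartile scaling.

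Of the miR-15/16 family, which restrains the cell cycle, miR-15a ran from 170 to 1147 CPM and 1087 to 1413 CPM, miR-15b from 21.3 to 49.1 CPM and 47.5 to 66.4 CPM, and miR-497 from 144 to 1028 CPM and 846 to 1629 CPM. All 3 overlapped in few libraries, with log2 differences of 0.99 (SE 0.37), 0.72 (SE 0.26) and 1.06 (SE 0.39), which were 0.62 (SE 0.16), 0.58 (SE 0.17) and 0.66 (SE 0.18) without alfalfa hay 1. With library weights all 3 were called. Their genomic neighbours had smaller estimates: miR-16a next to miR-15a had 0.07 (SE 0.29), miR-16b next to miR-15b had 0.48 (SE 0.25), and miR-195 next to miR-497 had 0.21 (SE 0.26). The list median was 0.34, or 0.16 without alfalfa hay 1, and none passed with equal weights. The difference between neighbours was not tested.

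The other miRNAs with a mean of at least 100 CPM and no overlap were miR-342, miR-1468, miR-28, miR-30c and miR-425-5p, all of them called with library weights. Below that mean, miR-2443, miR-6119-3p and miR-210, named after their values were seen, did not overlap either, beside miR-128 and miR-20b. miR-342 ran from 133 to 321 CPM (median 271) and from 337 to 480.2 CPM (median 432), with a log2 difference of 0.75 (SE 0.26). miR-1468 ran from 1043 to 2176 CPM (median 2022) and from 2332 to 4097 CPM (median 2696), and miR-28 from 277 to 672 CPM (median 596) and from 691 to 1113 CPM (median 818). Their differences were 0.67 (SE 0.24) and 0.70 (SE 0.26), and after upper-quartile scaling they were near zero, at -0.0015 for miR-1468 and 0.03 for miR-28. miR-30c ran from 353 to 1950 CPM (median 1657) and from 2085 to 2463 CPM (median 2308), and miR-425-5p from 112 to 208 CPM (median 190.1) and from 233 to 294 CPM (median 246). Every corn stover library was above every alfalfa hay library in both, and the log2 differences were 0.82 (SE 0.35) and 0.57 (SE 0.24). In the 11 libraries other than alfalfa hay 1 the difference of miR-30c was 0.45 (SE 0.12), and those of miR-342, miR-1468, miR-28 and miR-425-5p lay between 0.45 and 0.58.

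The remaining 6 miRNAs of smallest p were low or moderate in level. miR-877, miR-328, miR-499 and miR-484 ran from 1.07 to 11.5 CPM, 2.13 to 14.4 CPM, 1.07 to 16.7 CPM and 64.0 to 160 CPM on alfalfa hay, and from 11.4 to 15.6 CPM, 13.4 to 18.4 CPM, 16.3 to 25.7 CPM and 137 to 189 CPM on corn stover. Each overlapped slightly. miR-499 lies in a myosin gene of heart and slow muscle, and miR-133a, the leading miRNA of striated muscle, lay at 32.6 to 159 CPM and 101 to 233 CPM. miR-423-5p ran from 187 to 884 CPM and 656 to 1767 CPM, and miR-2285t, of the large cattle family of miR-2284 and miR-2285 whose reads can be shared between members, from 96.0 to 885 CPM and 621 to 1356 CPM. Differences of these 6 lay between 0.66 for miR-484 and 1.15 for miR-2285t on CPM. With alfalfa hay 1 left out they lay between 0.52 for miR-484 and 0.75 for miR-2285t, with 0.57 for miR-328 and 0.69 for miR-499. The difference of miR-484 was -0.01 after upper-quartile scaling. With library weights miR-877, miR-328, miR-499 and miR-423-5p were called, at limma adjusted p of 0.0261, 0.0227, 0.0427 and 0.0438.

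Among cell type and tissue lists, none had a member past the adjusted threshold in the 12 libraries with equal weights in limma. A list of luminal cells and lactation held miR-148a, miR-148b, miR-152, miR-30a-5p, miR-30d, miR-375, miR-21-5p and miR-21-3p, not all particular to secretory epithelium. These 8 summed to 251415 to 316268 CPM on alfalfa hay and 242144 to 296102 CPM on corn stover. Of these 4 were positive and 4 negative, with a median of -0.05 against 0.44 for all miRNAs, and without alfalfa hay 1, 3 were positive with a median of -0.07 against 0.17. The 5 miR-200 family members, of epithelium in general, summed to 25610 to 67448 CPM and 38600 to 58216 CPM, with 5 of 5 positive and a median of 0.51, but 3 of 5 and 0.14 without alfalfa hay 1. The 12 miRNAs of smooth muscle and stroma summed to 178836 to 455609 CPM and 134064 to 197913 CPM with a median of 0.40 (0.13 without alfalfa hay 1), and miR-143 and miR-10b made up most of that sum. The 14 miRNAs linked to milk fat and lipid metabolism summed to 25246 to 46293 CPM and 46400 to 53057 CPM, so the sums did not overlap, by a margin far smaller than the spread within a diet. Of them 12 were positive with a median of 0.54, none passed, and after upper-quartile scaling 4 were positive with a median of -0.09. Without alfalfa hay 1, 12 were positive on CPM with a median of 0.27.

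The 7 miR-30 family members, dominated by miR-30a-5p, summed to 121264 to 159705 CPM and 115694 to 142801 CPM, with 6 of 7 positive and a median of 0.49, or 0.15 without alfalfa hay 1. The 4 miR-181 members, abundant in lymphoid and many other cells, summed to 6184 to 24025 CPM and 17995 to 29145 CPM, with 4 of 4 positive and a median of 0.54. In the 11 libraries other than alfalfa hay 1 the median was 0.18 with all 4 positive, and after upper-quartile scaling 1 of 4 was positive. Of the 22 members of the cattle family of miR-2284 and miR-2285, 20 were positive with a median of 0.43, close to that of all miRNAs, and 17 with a median of 0.12 without alfalfa hay 1.

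Some lists lay lower than the whole. The 3 red cell miRNAs, led by miR-486 at 1318 to 4051 CPM and 714 to 2517 CPM, had a median of -0.12, and the 6 miRNAs of the X-linked cluster of miR-424, miR-450 and miR-542 one of 0.14, and without alfalfa hay 1 these were -0.21 and -0.053. At the other end stood miR-221 with miR-222 at 0.74 and the basal pair miR-205 and miR-31 with 0.70. miR-222, which restrains a cell cycle inhibitor, lay at 25.6 to 161 CPM and 143 to 284 CPM, and miR-205 at 860 to 3633 CPM and 1525 to 6032 CPM. After upper-quartile scaling of the 12 libraries all lists but miR-29, miR-221 with miR-222, striated muscle and the basal pair had a negative median.

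**Figure D4:**
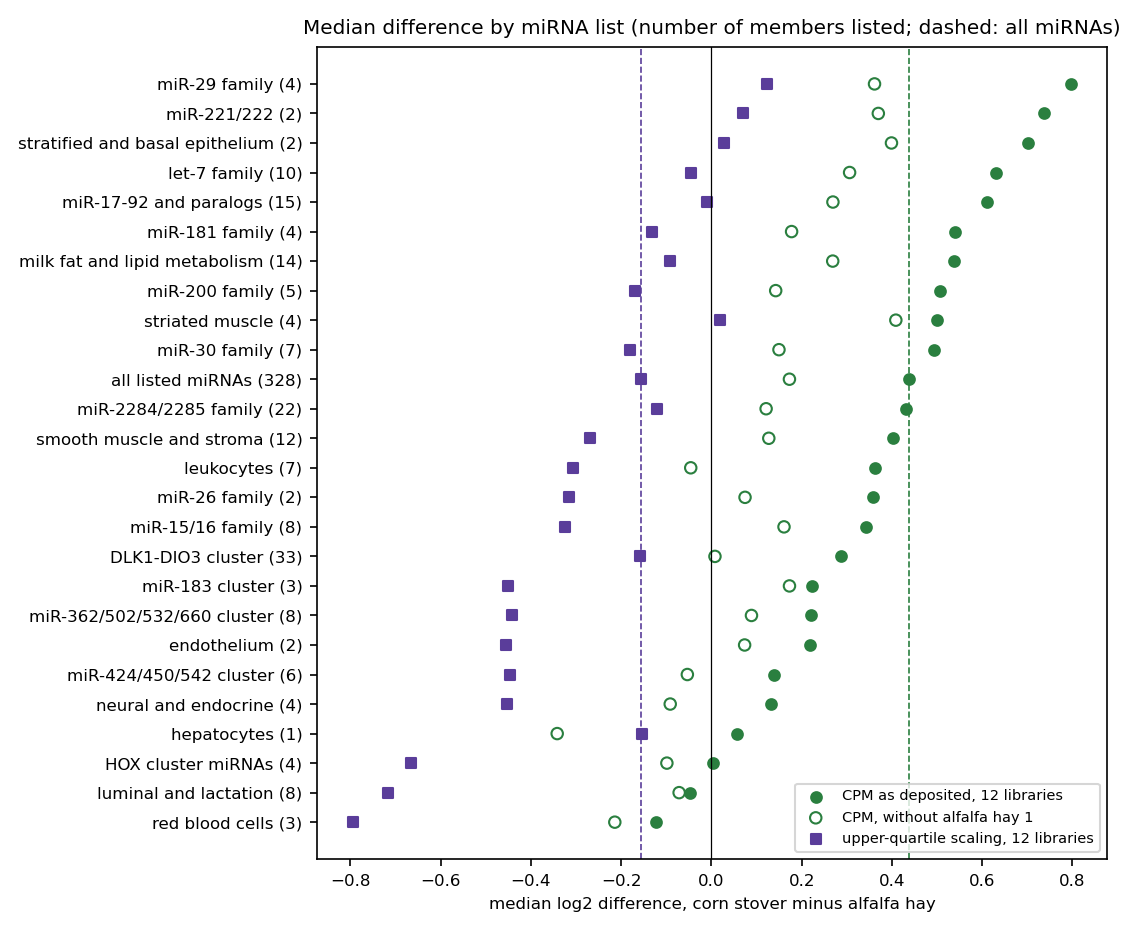
Median log2 difference, corn stover minus alfalfa hay, of each miRNA list, with the number of listed members in parentheses. Filled circles are CPM in the 12 libraries, open circles CPM without alfalfa hay 1, squares upper-quartile scaling in the 12 libraries, and dashed lines the medians of all 328 miRNAs (0.44 and -0.16). Lists run from the red cell miRNAs at -0.12 to the miR-29 family at 0.80 on CPM in the 12 libraries, and most medians turn negative after upper-quartile scaling.

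The mammary gland difference was then set against the same diets in rumen, duodenum, jejunum and liver of the same series, over 60 libraries and the 289 miRNAs listed in all 5 tissues. The median difference was 0.45 in mammary gland, 0.12 in rumen, -0.03 in duodenum, -0.16 in jejunum and -0.02 in liver. With each tissue fitted alone, limma called 56 of the 289 in jejunum and 0 in mammary gland and in each other tissue. The mammary difference minus the mean of the other 4 had a median of 0.45. That median was 0.22 without mammary alfalfa hay 1, 0.04 after trimmed-mean scaling and -0.17 after upper-quartile scaling. The test of the difference between mammary gland and the mean of the other 4 tissues called 0 of 289 (0.0%) in limma, with a smallest adjusted p of 0.0626. At an unadjusted p under 0.05, the diet difference was higher in the mammary gland for 73 miRNAs (25.3%) and lower for 0. Higher and lower in this test refer to the corn stover minus alfalfa hay difference, not to the level of a miRNA. After upper-quartile scaling 1 was called higher (0.346%) and 14 lower (4.84%). Without mammary alfalfa hay 1, 4 were called higher on CPM (1.38%), namely miR-106a, miR-342, miR-1468 and miR-340, and with upper-quartile scaling as well 10 were called lower (3.46%).

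miR-106a, miR-342 and miR-340 shared the smallest adjusted p in this test. The difference of miR-106a was 1.29 in mammary gland and between -0.39 and -0.30 in the other 4 tissues, and the difference between these was 1.65 (SE 0.44, limma adjusted p = 0.0626) and 1.28 (SE 0.29, limma adjusted p = 0.00789) without mammary alfalfa hay 1. After upper-quartile scaling it was 1.10 (SE 0.35, limma adjusted p = 0.0497). Mean miR-106a on alfalfa hay and corn stover was 1.33 and 0.81 CPM in liver and 2.39 and 1.66 CPM in rumen. In jejunum it was 5.98 and 4.66 CPM, and in duodenum 15.8 and 12.1 CPM. At levels near 1 CPM a difference on this scale is understated and rests on few reads. miR-342 differed by 0.75 in mammary gland and by -0.26, 0.16, -0.55 and 0.08 in rumen, duodenum, jejunum and liver, a departure of 0.89 (SE 0.25, limma adjusted p = 0.0626) that was 0.22 after upper-quartile scaling. The departure of miR-22-3p was 1.09 (SE 0.33, limma adjusted p = 0.0898), and its jejunum difference was also positive at 0.53 (SE 0.15). The departures of miR-10b and miR-127 were -0.66 (SE 0.73) and -0.24 (SE 0.56), smaller than their standard errors, so a mammary difference of these miRNAs was not shown to be particular to the gland. miR-6524 was among the 14 and the 10 called lower after upper-quartile scaling, at -0.89 (SE 0.23, limma adjusted p = 0.0240) and -0.96 (SE 0.20, limma adjusted p = 0.00184).

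**Figure D5:**
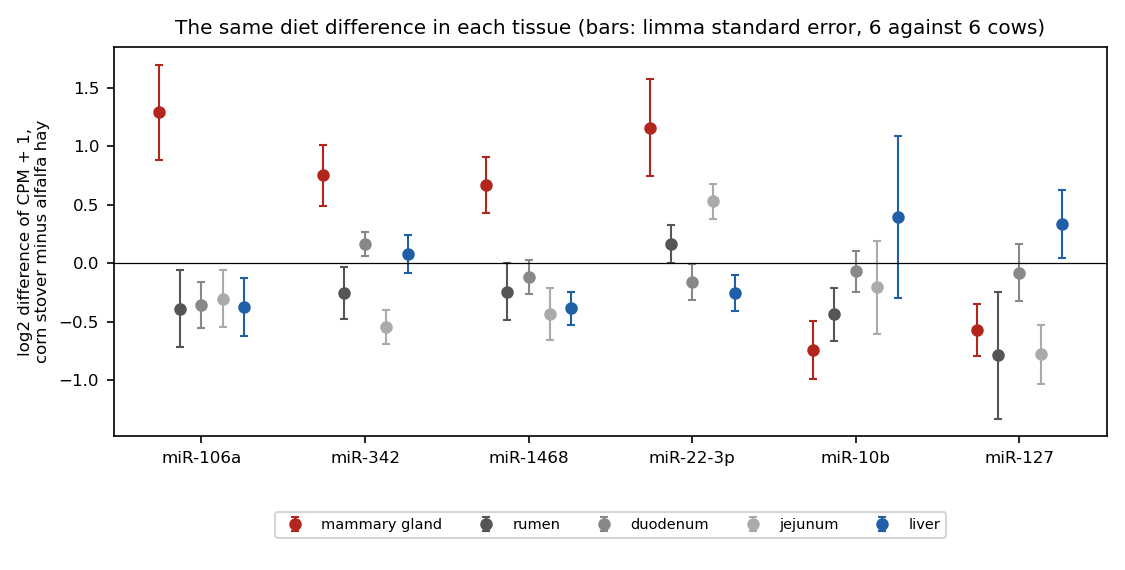
Log2 difference of CPM + 1, corn stover minus alfalfa hay, of 6 miRNAs in each of 5 tissues, with limma standard errors from 6 against 6 libraries per tissue. miR-106a is 1.29 in mammary gland and below zero in the other 4 tissues, where its mean per diet is 0.81 to 15.8 CPM. By contrast, miR-10b and miR-127 are negative in mammary gland and in rumen too. The mean of miR-127 on alfalfa hay and corn stover also falls in jejunum, from 2599 to 1618 CPM, and rises in liver, from 5050 to 6634 CPM.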

How the data were processed

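Small RNA was sequenced from the tissues of each cow (TruSeq libraries, HiSeq 2000, CASAVA 1.8 per the labels). The authors aligned reads longer than 15 nt to bovine precursors of miRBase 22 with sRNAbench (2 mismatches, up to 10 mappings), so reads of near-identical members can be shared. The deposited values are CPM, which the authors computed relative to all mapped miRNA reads of a library, although their text calls the files raw counts. Whole reads were recovered as multiples of the CPM step (100% of values up to 200 reads, tolerance 0.1), giving 937556 to 14328839 reads per library. Floors cover counting error only.

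Diets were compared with limma 3.58.1 (R 4.3.3, intensity trend) on log2(CPM + 1), so differences of low miRNAs are understated, with Benjamini-Hochberg adjustment over 328 miRNAs at 0.05. Single values used exact permutation. The tissue contrast used group means with weights per tissue. edgeR 4.0.16 and DESeq2 1.42.0 on recovered reads were among the alternatives. Fits were tested on simulated data with known changes. Those data held no library deviating as alfalfa hay 1 does and no shift of most miRNAs between diets. They therefore do not show how the fits behave under either. Named miRNAs are, with a mean of at least 10 CPM, the 20 of smallest p, the 10 most abundant, the leading 2 of each list, and those of at least 100 CPM without overlap. miR-127 and miR-6524 were given differences, and individual list members named, after their values were seen. The members and lists were chosen with earlier results of these data known. Neighbouring genes were taken from RefSeq (ARS-UCD2.0), where 326 of 328 miRNAs matched.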

Additional observations from a re-analysis of the deposited data

Results flagged for a closer look

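In groups of 6 libraries, 8 of 80 sets of values held a library far from the other 5. The rule flags about 1 in 20 sets where values are independent. These sets shared libraries, and many of their miRNAs were named from the same data, so the 8 cannot be judged by that rate. Of the 8, 6 were in alfalfa hay 1. There, miR-10b was far above the rest at 235766 CPM. Far below the rest were miR-29a at 715 CPM, let-7i at 2527 CPM, let-7e at 156 CPM and miR-93 at 159 CPM, and the number of miRNAs above 1 CPM at 283. On corn stover, miR-143 was low at 69396 CPM in replicate 4, and miR-21-5p was high at 51621 CPM in replicate 3.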

How the results depend on the processing

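The count of 0 miRNAs called between the diets was also 0 after upper-quartile or trimmed-mean scaling, with pseudocounts of 0.1 and 5 CPM, a mean of at least 10 CPM, all 18 libraries, robust moderation and edgeR with and without scaling factors. It was 35 with library weights and 3 with DESeq2. Leaving out 1 library gave 0 to 5, with 5 without alfalfa hay 1 and 1 (miR-2419-5p) without alfalfa hay 3. Alternatives added after seeing the data gave 4 and 4 (upper-quartile and trimmed-mean scaling, without alfalfa hay 1) and 1 (without alfalfa hay 1 and 2). The 5 were all among the 35, from a fit in which alfalfa hay 1 weighed only 0.04. With the replicate number as a block the count was 0, and same-numbered libraries deviated together at r from -0.15 to 0.45, with 2 of 6 closest to their own number, so the numbers were not taken to pair libraries.

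For the departure from the other tissues, 0 became 15 after upper-quartile scaling, 3 with a pseudocount of 5 CPM and 61 with equal weights, and, added after seeing the data, 4 without mammary alfalfa hay 1 and 10 with upper-quartile scaling too. With the replicate number taken as a cow across tissues, an assumption that the labels do not state, both fits with that block called 0, and same-numbered libraries of a diet deviated together at a median r of 0.01 to 0.11 per tissue.

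In these libraries 3 reads are worth 0.209 to 3.20 CPM, which limits miRNAs near 1 CPM. Depth differed by -3483420 reads, by -5007450 without alfalfa hay 1, and by -5007450 to -2329200 over all libraries left out in turn.

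Of the 37 named miRNAs whose difference was followed through the alternatives, 28 kept their sign throughout. Most of them were named by small p or lack of overlap in these same libraries, which favours a stable sign. The same count was not made for the other miRNAs. After upper-quartile scaling the sign turned for miR-1468 (-0.0015), miR-484 (-0.0058), miR-425-5p (-0.10), miR-26a (-0.23), miR-141 (-0.64), miR-27b (-0.39), miR-21-5p (-0.19) and let-7i (-0.28). After trimmed-mean scaling it turned for miR-26a (-0.0059), miR-141 (-0.42), miR-27b (-0.17) and let-7i (-0.057). With upper-quartile scaling without alfalfa hay 1 it turned for miR-26a (-0.21), miR-141 (-0.49), miR-27b (-0.22), miR-21-5p (-0.14), let-7a-5p (-0.077) and let-7i (-0.14), and with trimmed-mean scaling for miR-26a (-0.024), miR-141 (-0.30) and miR-27b (-0.030). In edgeR with TMM factors and DESeq2 it turned for miR-141 (-0.45 and -0.43), miR-27b (-0.22 and -0.20) and let-7i (-0.076 and -0.055). miR-141 also turned with library weights (-0.24), in edgeR without factors (-0.023), without alfalfa hay 1 and 2 (-0.20), and lay between -0.088 and 0.17 with 1 library left out. The cause was not tested.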
